A study of Mus musculus with 2 samples.

Results

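Accessibility of the promoters of long intergenic noncoding RNA (lincRNA) genes was read from DNase-seq of the adrenal gland of 2 male mice of the hybrid strain B6CASTF1/J, aged 25 days, with 1 library per animal. The regions were 1 kb on either side of each annotated transcript start of a GENCODE M21 gene of type lincRNA on the autosomes, and starts within 2 kb of a protein-coding start were left out. Of 5209 autosomal lincRNA genes, 4797 kept at least 1 start, and they contributed 6565 starts out of 7173. Windows that overlapped merged into 5170 regions covering 10.7 Mb. The autosomes held 51229 annotated genes of every type, of which 20722 were protein-coding. Both animals belong to a single group with no treatment named in the labels, replicate 1 and replicate 2, so values are given for each library and no difference between animals was tested. The labels number the animals as biological replicates and give both the same donor code. The animals carry 1 set of chromosomes from each parental strain, whereas every position is that of the C57BL/6J reference (mm10), and a value sums both copies.

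DNase I cuts accessible DNA, and a stretch cut often is a DNase I hypersensitive site (DHS). A short stretch inside a DHS that is protected from cutting, as by a bound protein, is a footprint. LincRNA genes lie between protein-coding genes, are transcribed by RNA polymerase II and usually spliced, and give RNAs with no long open reading frame. Some, such as Malat1, are abundant in nearly every cell, and many are transcribed in few tissues, from promoters that are poorer in CpG than those of most protein-coding genes. The adrenal gland joins a cortex of steroid-producing cells to a medulla of chromaffin cells, which release adrenaline and noradrenaline.

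The stretches printed here were chosen to show some of the strongest CpG-rich promoters, the well-known gene Malat1 and a promoter with a cyclic AMP response element. Mir142hg and Gm831 were chosen as genes whose heights differed widely between the libraries. Other CpG-rich promoters of similar height, such as those of 9430037G07Rik and D730045B01Rik, were left out. Each printed stretch is the DHS of replicate 1, cut to its central 240 bp where longer, except that of Mir142hg, which is the DHS of replicate 2. All are written 5′ to 3′ on the gene's strand from the mm10 reference (GRCm38.p6), and capitals mark bases that lay inside a footprint of both libraries.
Tmem250-ps, chr2:26140501-26140700, minus strand: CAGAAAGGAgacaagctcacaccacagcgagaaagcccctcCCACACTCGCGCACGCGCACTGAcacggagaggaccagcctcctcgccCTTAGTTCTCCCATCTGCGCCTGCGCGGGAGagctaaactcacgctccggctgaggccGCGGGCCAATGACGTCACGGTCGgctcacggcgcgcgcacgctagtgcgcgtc
Gm20732, chr15:68363201-68363420, minus strand: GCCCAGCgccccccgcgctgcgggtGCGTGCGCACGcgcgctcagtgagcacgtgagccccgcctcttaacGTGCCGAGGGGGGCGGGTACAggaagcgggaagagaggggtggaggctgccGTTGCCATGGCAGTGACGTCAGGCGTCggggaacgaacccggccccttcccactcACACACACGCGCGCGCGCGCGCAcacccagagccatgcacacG
1700096K18Rik, chr5:25529611-25529850, plus strand: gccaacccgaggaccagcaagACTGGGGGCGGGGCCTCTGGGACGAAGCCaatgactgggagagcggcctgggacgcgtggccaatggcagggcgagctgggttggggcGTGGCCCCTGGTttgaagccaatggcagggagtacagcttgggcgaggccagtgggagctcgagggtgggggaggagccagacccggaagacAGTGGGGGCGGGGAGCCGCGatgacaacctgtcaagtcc
6720427I07Rik, chr13:48546551-48546790, minus strand: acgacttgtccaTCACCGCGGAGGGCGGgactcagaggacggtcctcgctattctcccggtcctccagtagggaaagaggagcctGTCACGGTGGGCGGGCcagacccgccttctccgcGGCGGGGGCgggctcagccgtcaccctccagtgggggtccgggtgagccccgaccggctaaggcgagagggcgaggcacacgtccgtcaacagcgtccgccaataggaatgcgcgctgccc
Malat1, chr19:5803561-5803700, minus strand: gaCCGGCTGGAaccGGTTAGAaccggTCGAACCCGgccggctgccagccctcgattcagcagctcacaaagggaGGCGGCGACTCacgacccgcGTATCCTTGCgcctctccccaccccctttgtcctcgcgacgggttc
Pvt1, chr15:62037881-62038080, plus strand: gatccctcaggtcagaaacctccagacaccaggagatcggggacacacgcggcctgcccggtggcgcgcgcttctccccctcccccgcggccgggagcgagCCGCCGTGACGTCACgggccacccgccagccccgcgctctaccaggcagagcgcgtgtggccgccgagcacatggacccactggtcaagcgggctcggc
Mir142hg, chr11:87755421-87755600, plus strand: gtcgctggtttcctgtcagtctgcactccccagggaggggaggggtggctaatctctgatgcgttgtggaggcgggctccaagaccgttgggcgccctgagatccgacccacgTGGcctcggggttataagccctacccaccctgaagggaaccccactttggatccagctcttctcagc
Gm831, chr4:131486881-131487040, plus strand: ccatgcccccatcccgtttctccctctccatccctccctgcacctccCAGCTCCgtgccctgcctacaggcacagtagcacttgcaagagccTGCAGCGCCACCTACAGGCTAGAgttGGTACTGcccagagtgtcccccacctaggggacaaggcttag
The palindrome TGACGTCA, the cyclic AMP response element, lay wholly in capitals in Tmem250-ps, Gm20732 and Pvt1. In Tmem250-ps it occupied bases 157 to 164 of the printed stretch, sharing its first base with the end of a CCAAT box at bases 153 to 157. The Sp/KLF box GGGCGG lay in capitals at bases 27 to 32 and 207 to 212 of 1700096K18Rik, and at bases 23 to 28 and 94 to 99 of 6720427I07Rik. None of the 12 motifs searched occurred in the stretches of Malat1, Mir142hg or Gm831. The Malat1 stretch is a DHS centred at -959 bp from the start, and a separate DHS at the start itself is not printed. The stretch of Malat1 held 16 CpG dinucleotides and that of Gm20732 held 29, against 8 in Mir142hg and 3 in Gm831. A match describes the letters and does not show a bound factor.

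The tissue label was checked at protein-coding marker promoters. All 7 markers of the adrenal cortex were open in both libraries, among them Star, the cholesterol carrier of mitochondria, with heights of 7.55 and 4.02. The lowest of the 7 was Mc2r, with 0.458 and 0.666. Of 5 chromaffin cell markers, 4 were open in both, and Pnmt, which makes adrenaline, was open in neither. Neither of 2 kidney markers nor of 2 liver markers was open. With 70.7% and 70.4% of all protein-coding genes open, and 67.1% open in both libraries, the chromaffin count is near the background. Cd3e, a lymphocyte marker, was open in replicate 2 alone, where its promoter height was 0.577. The longer deposited lists held 130945 and 157786 DHSs. Height is the deposited signal of a peak, which moved in whole steps of 0.00833 in replicate 1 and 0.00888 in replicate 2, so a low height rests on few steps.

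A minority of lincRNA genes had an accessible promoter. A gene was called open when a DHS touched a kept window by at least 1 bp. In replicate 1, 1231 genes were open (25.7%, 95% Wilson interval 24.4 to 26.9%), and in replicate 2, 1250 (26.1%, 24.8 to 27.3%). These intervals, like all others given, cover counting error only. Over all autosomal genes of every type, with every start of each counted, 41.4% were open in replicate 1 and 42.2% in replicate 2, so lincRNA genes lay below the background of the annotation. Both libraries were open at 926 lincRNA genes (19.3%), against 37.3% of all genes, 305 were open in replicate 1 alone, 324 in replicate 2 alone, and 3242 in neither. In a whole gland, fewer cells of a type and less accessibility per cell cannot be told apart.

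LincRNA genes ranked between protein-coding genes and pseudogenes. With the same window, 70.7% and 70.4% of protein-coding genes were open. Among the other noncoding types, held to the same distance from protein-coding starts, antisense genes were open in 25.3% and 25.1%, with intervals that overlap those of lincRNA genes. Genes of type processed transcript, a class that holds many small nucleolar RNA hosts, reached 39.6% and 39.8%. Genes of type TEC, which await experimental support, were open in 13.2% and 13.7%, and processed pseudogenes, copies of spliced messenger RNAs, in 8.15% and 11.6%. The gene types kept the same order in both libraries.

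**Figure D1:**
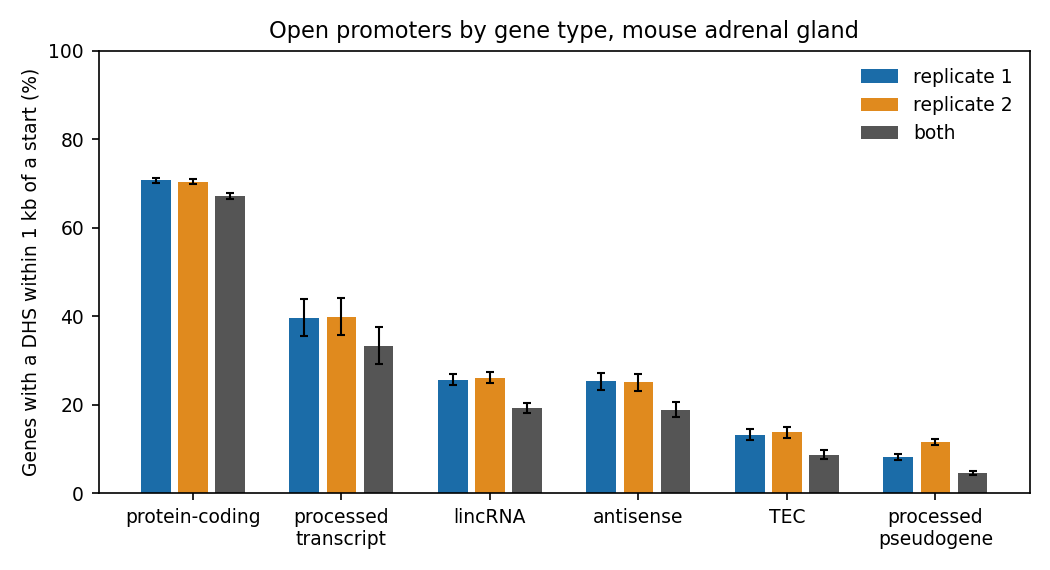
Share of autosomal genes with a DHS within 1 kb of a kept start, by GENCODE gene type, for replicate 1, replicate 2 and genes open in both; bars start at 0 and lines are 95% Wilson intervals. LincRNA genes (25.7% and 26.1%) sit level with antisense genes and far under protein-coding genes (70.7% and 70.4%).

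DHSs concentrated at the annotated lincRNA starts. Around the most 5′ kept start of each gene, the 100 bp bin from -100 to -1 was touched by a DHS at 10.6% and 10.1% of genes, against a mean of 1.99% and 2.03% in bins 4 to 5 kb away, a ratio of 5.33 and 4.95. At protein-coding starts the same bin was touched at 53.6% and 52.4%, and the far bins at 2.22% and 2.28%. The level far from the start was nearly the same for both gene types, while the height of the central peak and the shape of its flanks differed. Bins in the 1 kb downstream were touched in a mean of 23.0% and 21.6% of protein-coding genes, above the 16.3% and 16.0% upstream, whereas at lincRNA genes the downstream means (4.29% and 4.12%) were slightly under the upstream ones (4.53% and 4.27%). The centre of the strongest DHS lay a median of 258 and 300.5 bp from the nearest kept start, within 250 bp for 49.0% and 45.8% of open genes. It lay upstream for 58.6% and 56.2%. The nearest annotated transcript start of any gene was the lincRNA gene's own for 1158 of 1231 (94.1%) and 1178 of 1250 (94.2%). The rule favours this outcome, since a DHS was counted only within 1 kb of a kept start, over 2 kb from protein-coding starts. RefSeq, a separate annotation on the same build, placed a coding transcript start within 1 kb of the centre of the strongest DHS for 59 (4.79%) and 54 (4.32%) of the open genes.

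**Figure D2:**
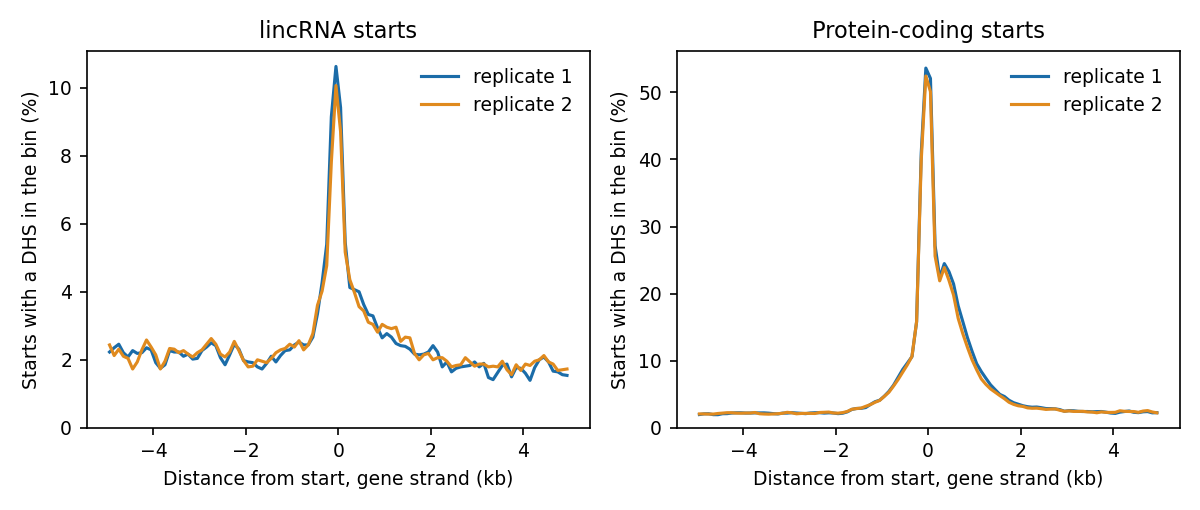
Share of genes whose 100 bp bin is touched by a DHS, against distance from the most 5′ kept start on the gene's strand (kb), for lincRNA genes on the left and protein-coding genes on the right, with separate vertical scales. Both profiles are highest at the start (10.6% and 10.1% against 53.6% and 52.4%) and fall to about the same level at 4 to 5 kb.

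The share of open genes changed little with distance up to 100 kb from the nearest protein-coding start and was lower beyond it. It was 31.9% and 32.7% at 2 to 5 kb, 28.1% and 28.4% at 5 to 20 kb, 29.8% and 30.9% at 20 to 100 kb, and 19.9% and 19.6% over 100 kb. Just inside the 2 kb limit, 34.7% and 36.7% of 49 starts at 2 to 2.5 kb were open, and just outside it 42.9% and 40.8% of 49 starts at 1.5 to 2 kb. Genes with 1 kept start were open in 22.5% and 23.1%, those with 2 to 4 starts in 36.1% and 35.5%, and those with 5 or more in 56.3% and 57.5%, and more starts also give more window to touch. Spliced genes (25.9% and 26.0%) and genes with a single exon (22.3% and 26.5%) had overlapping intervals. The 269 genes with an opposite-strand long noncoding start within 1 kb were open in 39.8% and 33.1%, against 24.8% and 25.6% of the rest, and 27.1% of them were open in both libraries against 18.8% of the rest.

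LincRNA starts were seldom CpG-rich, and those that were CpG-rich were mostly open. A start was called CpG-rich when the 500 bp on either side of the gene's most 5′ kept start had at least 50% G+C and at least 0.6 of the CpG expected from its base composition. Of lincRNA genes 124 (2.58%) were CpG-rich, against 46.4% of protein-coding genes. Of these 124 genes, 106 (85.5%) were open in replicate 1, 102 (82.3%) in replicate 2 and 100 (80.6%) in both. Of the CpG-poor lincRNA genes, 24.1% and 24.6% were open, and 17.7% in both. CpG-rich protein-coding genes were open in both libraries in 97.3% of cases and CpG-poor ones in 41.0%. The lower share at lincRNA genes therefore held within both CpG classes, and it held with the most 5′ start alone, where CpG-poor lincRNA genes were open in 22.6% and 23.0% and CpG-poor protein-coding genes in 40.5% and 40.2%.

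Heights followed the same division. The strongest DHS of an open CpG-rich lincRNA gene had a median height of 7.56 and 5.60, against 1.12 and 0.933 at CpG-poor lincRNA genes. The protein-coding medians were 12.0 and 8.68 for CpG-rich genes and 3.67 and 2.43 for CpG-poor ones. Repeats went the other way. A start inside a soft-masked repeat of the reference was found at 22.0% of lincRNA genes, 9.94% of those open in both libraries and 26.1% of those open in neither. Genes that start in a repeat were open in 13.3% and 15.0%, against 29.1% and 29.2% of the rest. The median G+C content around the start was 49.6% for genes open in both and 45.1% for genes open in neither.

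The DHSs at lincRNA promoters were weaker than those at protein-coding promoters. The strongest DHS per open gene had a median height of 1.27 in replicate 1 (quartiles 0.617 and 3.22) and 0.995 in replicate 2 (0.595 and 2.15), which correspond to 153 and 112 steps. Protein-coding genes had medians of 9.17 and 6.48, and all DHSs of the libraries 1.01 and 0.720. Of the open lincRNA genes, 31.9% and 36.7% had a DHS in the top quartile of their library, against 80.7% and 82.6% of open protein-coding genes. In all, 1748 DHSs of replicate 1 (1.33%) and 1777 of replicate 2 (1.13%) touched a lincRNA window. Most open genes had 1 such DHS, 839 and 859 of them, and 12 and 14 genes had 5 or more.

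Whether a lincRNA promoter was open in both animals went with its height. Of the open genes, 75.2% in replicate 1 and 74.1% in replicate 2 were open in the other library. In 885 of the 926 genes open in both, the same stretch of DNA carried the DHS, and in 41 the DHSs of the libraries did not overlap. Genes open in both had a median height of 1.87 and 1.36, and genes open in that library alone 0.533 and 0.524. Of single DHSs at lincRNA windows, 68.0% and 66.6% overlapped a DHS of the other library, against 81.0% and 81.2% at protein-coding windows and 56.4% and 45.3% at autosomal DHSs in neither kind of window. When DHSs were split by the height quartiles of their library, the shared share at lincRNA windows rose in replicate 1 from 28.5% in the lowest quartile through 57.0% and 83.1% to 98.1% in the highest, and in replicate 2 from 18.5% through 43.4% and 73.8% to 553 of 582 DHSs in the highest. In the highest quartile the protein-coding values were 98.5% in replicate 1 and 17520 of 18436 in replicate 2, and those of DHSs in neither window 97.2% and 95.9%. The gap between lincRNA and protein-coding promoters in the total was thus small or absent among the tallest DHSs. In the third quartile the protein-coding values were 82.6% and 72.8%, near the lincRNA ones. In the second quartile the lincRNA share was above the protein-coding one in replicate 1 (57.0% against 48.9%). It was below it in replicate 2 (43.4% against 46.3%). In the lowest quartile of replicate 2 the values differed more, with 18.5% at lincRNA windows (interval 13.7 to 24.5%), 27.0% at protein-coding windows and 7.03% elsewhere.

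The heights of the libraries were related but offset. Across the 885 overlapping pairs, log2 heights had a Pearson r of 0.870 and a Spearman rho of 0.853, a description across genes that share both libraries. The log2 ratio of replicate 2 over replicate 1 had a median of -0.36 (quartiles -0.83 and 0.08) over the 926 genes, and 264 of them (28.5%) were higher in replicate 2. Over all 80816 autosomal overlapping DHS pairs the median was -0.34, with 29.0% higher in replicate 2, so the offset was that of the libraries as a whole. Dividing each height by its library's median turned the median ratio to 0.12, so no overall direction is read from it.

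**Figure D3:**
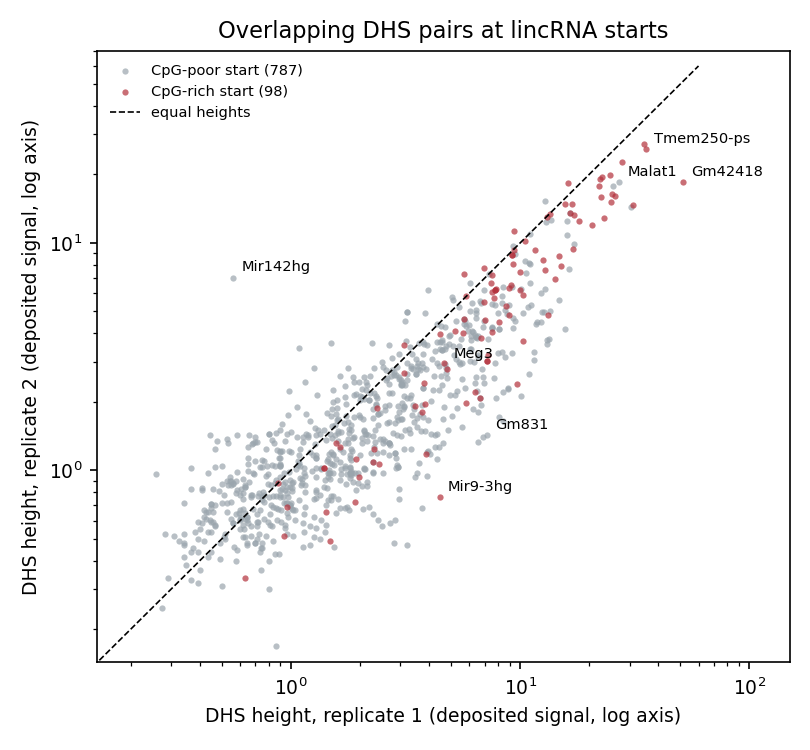
Heights of the strongest overlapping DHS pair of each of 885 lincRNA genes, replicate 1 against replicate 2 (deposited signal, both axes logarithmic), coloured by CpG class of the start; the dashed line marks equal heights. Most genes lie a little under the line, CpG-rich starts (98 pairs) fill the upper right, and Mir142hg (0.558 and 7.04) and Mir9-3hg (4.45 and 0.764) lie far from it on opposite sides.

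Most lincRNA promoter DHSs held a footprint. At least 1 footprint lay in 81.4% of them in replicate 1 and 68.0% in replicate 2, against 78.1% and 69.3% at protein-coding windows and 78.1% and 62.7% elsewhere. The share grew with height, from 51.4% in the lowest quartile to 99.1% in the highest in replicate 1, and from 29.5% to 85.9% in replicate 2. In the third quartile, lincRNA DHSs held a footprint in 88.2% and 74.9% of cases, protein-coding DHSs in 59.5% and 59.1%, and the other DHSs in 94.5% and 80.1%. In that quartile the lincRNA values lay between the other sets, nearer to DHSs away from promoters, while in the second quartile of replicate 2 the lincRNA share (54.2%) lay nearer to the protein-coding one (51.4%) than to that elsewhere (62.3%). The number of footprints per kb of DHS, 11.1 and 7.75 at lincRNA windows, lay between the values elsewhere (10.5 and 7.06) and at protein-coding windows (12.0 and 8.95). Of 3461 lincRNA footprints in replicate 1, 29.0% overlapped a footprint of replicate 2, and of 2204 in replicate 2, 48.9% overlapped 1 of replicate 1. These shares were 41.8% and 64.8% at protein-coding windows and 24.6% and 36.7% elsewhere. The median lincRNA footprint was 10 bp wide in replicate 1 and 8 bp in replicate 2.

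**Figure D4:**
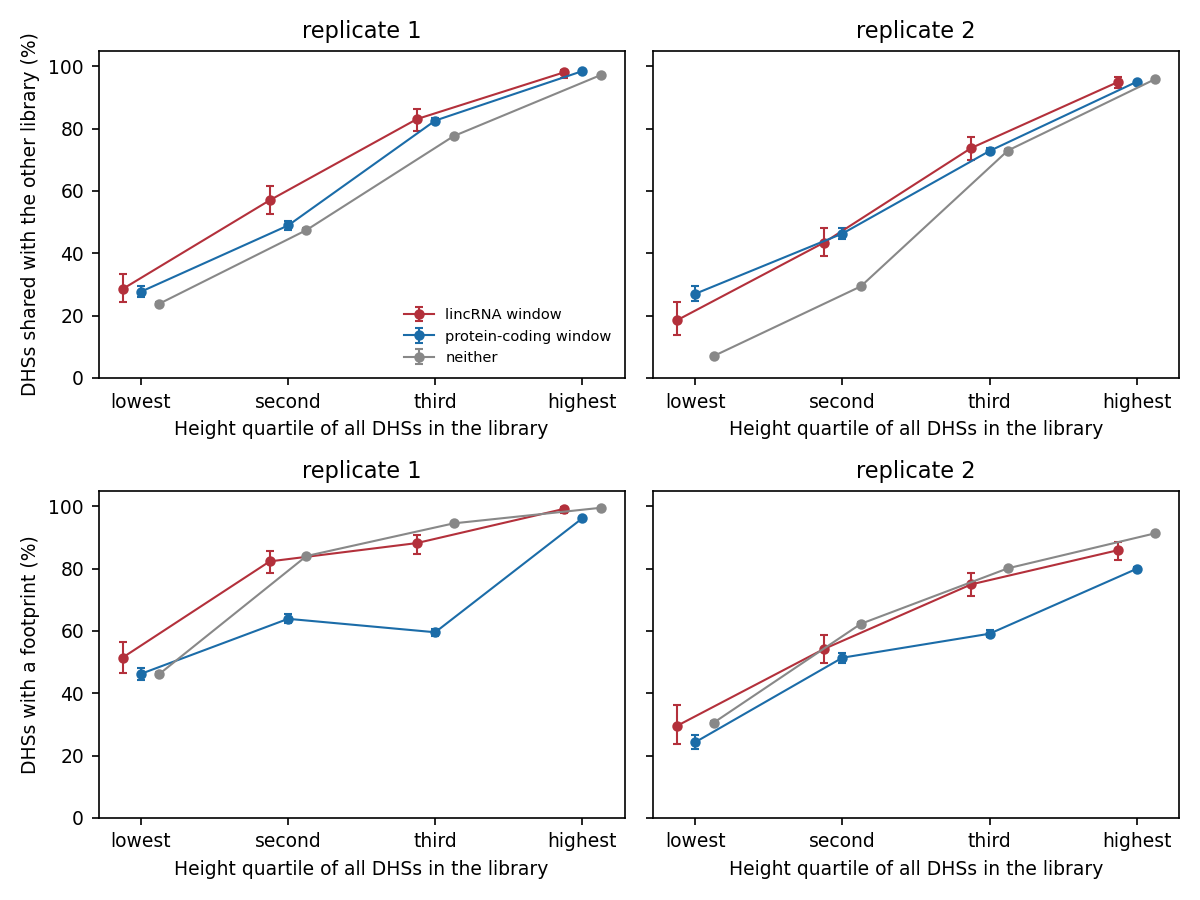
Share of DHSs that overlap a DHS of the other library (top) and share that hold a footprint (bottom), by height quartile of all DHSs in each library, for DHSs in lincRNA windows, in protein-coding windows and in neither; lines are 95% Wilson intervals. Both shares rise with height, except for footprints in protein-coding windows of replicate 1, at 63.9% in the second quartile and 59.5% in the third. In the third quartile lincRNA DHSs hold footprints (88.2% and 74.9%) more often than protein-coding ones (59.5% and 59.1%).

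The shares of lincRNA promoter DHSs with a motif lay between those of protein-coding promoters and of other open sites for 11 of 12 motifs in each library. The exceptions were the CTCF core in replicate 1 (1.03%, against 1.11% and 1.29%) and the NF-Y box in replicate 2 (17.4%, against 18.9% and 18.2%), which lay below both. The lincRNA intervals (0.652 to 1.62% and 15.8 to 19.3%) cover these other values. Some of the values in between are as close, such as AP-1 in replicate 2 (interval 9.71 to 12.6%, against 11.4% in neither window), so not every order is resolved. The central 150 bp of each DHS were searched on both strands for the 12 motifs, which were CCAAT (NF-Y box), GGGCGG (Sp/KLF box), TATAAA (the core promoter TATA box), CCGGAAG (ETS), GCGCATGC (NRF1), TGACGTCA (cyclic AMP response element), TGANTCA (AP-1), CAAGGTCA (SF-1 and related receptors), CCAGGGGGC (CTCF core), TTGGCA (NFI), GATAA (GATA) and GGAATG (TEAD). The Sp/KLF box occurred in 17.3% and 15.8% of lincRNA DHSs, 44.3% and 43.0% of protein-coding DHSs, 8.73% and 6.46% of DHSs in neither window, and 17.3% and 13.9% of all autosomal DHSs. Within lincRNA DHSs it occurred in 45.6% and 42.8% at CpG-rich starts, close to the 48.8% and 47.8% at CpG-rich protein-coding starts, and in 13.7% and 12.4% at CpG-poor starts, against 35.2% and 33.3% at CpG-poor protein-coding starts. The box is itself made of G and C, so its share moves with base composition. The AP-1 motif, bound by Fos and Jun proteins, showed the opposite order, with 11.0% and 11.1% in lincRNA DHSs, 3.55% and 3.54% in protein-coding DHSs, 13.7% and 11.4% in neither, and 11.2% and 9.79% in all. The motif of SF-1, the nuclear receptor that controls steroid synthesis genes in the adrenal cortex, occurred in 2.06% and 2.14% of lincRNA DHSs, 0.902% and 0.918% of protein-coding DHSs, 3.23% and 2.74% of those in neither, and 2.66% and 2.36% of all. The cyclic AMP response element printed in 3 of the stretches was rare, at 0.973% and 1.13% of lincRNA DHSs against 0.662% and 0.581% of all. Among footprints with 5 bp added on each side, 6.13% and 6.44% of those at lincRNA windows held the Sp/KLF box, 17.1% and 16.5% at protein-coding windows, and 2.68% and 1.99% elsewhere.

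The 10 strongest overlapping pairs were at genes of which most are known by clone or model names. The tallest, at Gm42418, had heights of 51.2 in replicate 1 and 18.5 in replicate 2 (chr17:39846781-39846880). This DHS lies inside Rn18s-rs5, which RefSeq lists as a pseudogene of 18S ribosomal RNA at chr17:39846354-39848202, and the 36 bases at its centre occur 2 times in the reference. Ribosomal RNA genes are present in many copies, most of them absent from reference assemblies, so this value is uncertain. At the named genes other than Gm42418, the 36 bases at the DHS centre occurred 1 time in the reference.

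Next came 1700096K18Rik, a gene with a single exon, at 34.8 and 27.2, with 6 and 7 footprints in its windows. Tmem250-ps had 35.3 and 25.8, and RefSeq annotates a coding transcript there, so its class differs between annotations. Gm20732, whose start lies 104320 bp from that of Zfat, the nearest protein-coding gene, reached 27.9 and 22.7. The other genes among the 10 were 9430037G07Rik (31.0 and 14.7), Malat1, Gm15408 (30.4 and 14.5), D730045B01Rik (24.6 and 19.8), Gm31812 (25.4 and 17.7), and 6720427I07Rik (22.8 and 19.4). In RefSeq the DHS of D730045B01Rik lies inside Stard13, a protein-coding gene on the same strand, with no coding start within 1 kb. It also covers the start of the noncoding gene 1700028E10Rik. All 10 were taller in replicate 1, the direction of the libraries as a whole, since 29.0% of all autosomal pairs were higher in replicate 2. Of the 50 strongest pairs, 32 lay at CpG-rich starts, a class of 124 among the 4797 lincRNA genes, and 13 beside an opposite-strand noncoding start, found at 269 of the 4797. Spliced genes made up 46 of the 50, near their share of all lincRNA genes (4537 of 4797). Of the 50 starts 1 was in a repeat, against 22.0% of all lincRNA genes. All 50 genes had footprints in both libraries, and 99.1% and 85.9% of all lincRNA DHSs in the top height quartile held 1. RefSeq placed a coding transcript start within 1 kb of 5 of the DHSs of the 50 strongest pairs.

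Of 81 well-known noncoding RNA genes listed by name, 33 were lincRNA genes with a kept start. The remaining symbols were of another type in the annotation, had no kept start or were not found in it. Of the 33, 27 were open in replicate 1, 25 in replicate 2 and 24 in both, against 19.3% of all lincRNA genes open in both. The list holds well-studied genes, and nothing particular to it is read from this count. Some of them have many kept starts, such as Lncpint with 14 and Pvt1 with 10. Of all lincRNA genes with 5 or more kept starts, 56.3% and 57.5% were open.

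The 2 genes of nuclear bodies were open in both libraries, against 19.3% of all lincRNA genes. Malat1, the abundant RNA of nuclear speckles, had a DHS of height 13.9 and 8.49 at its start, with centres 9 bp upstream in both libraries, and a taller DHS of 27.1 and 18.6 about 1 kb upstream. The upstream DHS held 3 footprints in replicate 1 and 8 in replicate 2. Neat1, the RNA scaffold of paraspeckles, had its tallest DHS upstream as well, with heights of 16.0 and 12.4 and centres at -433 and -443 bp from the start, beside a DHS of 8.97 and 5.62 closer to it. In both genes replicate 1 was the higher, the direction of the libraries as a whole.

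Of 3 imprinted members, 2 were open in both libraries, against 19.3% of all lincRNA genes. Meg3, a maternally expressed RNA of the Dlk1-Dio3 domain, had DHSs at several of its starts, 2.57 and 1.77 at the most 5′ one, and 4.70 and 2.92 about 2 kb inside the gene. H19, the maternally expressed neighbour of Igf2, had only low DHSs of 0.750 and 0.737, which did not overlap between the libraries and held no footprint. Mirg, a microRNA host of the Meg3 domain, was open in neither.

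Hosts of small RNAs were open in 9 of 10 cases in each library, against 25.7% and 26.1% of all lincRNA genes. The small nucleolar RNA hosts Snhg6 (9.35 and 8.08), Snhg12 (5.67 and 7.28) and Snhg20 (6.42 and 5.07) were tall, and of these Snhg12 was the higher in replicate 2. Mir17hg, host of the miR-17-92 cluster, had heights of 9.22 and 6.38, and Mir670hg 6.47 and 3.83. Mir155hg, host of the immune microRNA miR-155, had 2.37 and 1.87.

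Mir142hg, host of miR-142, a microRNA of blood cells, had the largest log2 ratio between the libraries, in either direction, among lincRNA genes of above-median height. Replicate 1 had a single DHS of 0.558, and replicate 2 had 3 DHSs of 4.60, 7.04 and 2.57, so that the log2 ratio of replicate 2 over replicate 1 was 3.66. The lymphocyte marker Cd3e also had a promoter DHS in replicate 2 (0.577) and none in replicate 1, and its part in the result was not tested. Mir155hg did not share the difference, since its log2 ratio was -0.34. Of the hosts of neuronal microRNAs, Mir9-3hg had 4.45 in replicate 1 and 0.764 in replicate 2, Mir124a-1hg had 0.933 and 0.702, and Mir124-2hg was open in neither.

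The genes tied to growth and stress, again with Meg3, were open in replicate 1 in 7 of 7 cases and in both in 6. Of all lincRNA genes, 25.7% were open in replicate 1 and 19.3% in both. Lncpint, an RNA induced by p53, had 8 and 9 DHSs in its windows, the tallest of 16.5 and 13.5. Pvt1, which lies 50564 bp from the start of Myc, had 6.12 and 3.72 at its first start and weaker DHSs at later starts, centred as far as 185455 bp downstream in replicate 1. Trp53cor1, the p53-induced lincRNA beside the cell cycle inhibitor gene Cdkn1a, had 2.73 and 2.58. Epb41l4aos had 8.12 and 4.47 and Lncenc1 had 1.65 and 1.01. Miat had 0.983 in replicate 1 and no DHS in replicate 2.

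Of 12 genes listed under development, 8 were open in replicate 1, 7 in replicate 2 and 6 in both. The shares of all lincRNA genes were 25.7%, 26.1% and 19.3%. Carmn, host of the smooth muscle microRNAs miR-143 and miR-145, had 4.54 and 3.76 in a DHS centred at -1024 bp from its start. A DHS at the start of Carmn had 0.792 and 1.23. Halr1 beside the HoxA cluster had 2.87 and 1.02, and the pluripotency-associated Platr4 and Platr22 had 2.85 and 1.61, and 1.47 and 0.977. Bvht, a cardiac lincRNA, had 0.758 and 1.27 at different places. Ptgs2os2 had 0.575 and 0.897. The neural genes Rmst (0.533) and Pantr1 (0.617) were open in replicate 1 alone and Platr10 (0.426) in replicate 2 alone. Hotair of the HoxC cluster, Paupar beside Pax6, and Gm26917 were open in neither. Gm26917, at chr17:39843013-39846341, ends just before the ribosomal RNA pseudogene Rn18s-rs5, and no role in development is read for it.

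**Figure D5:**
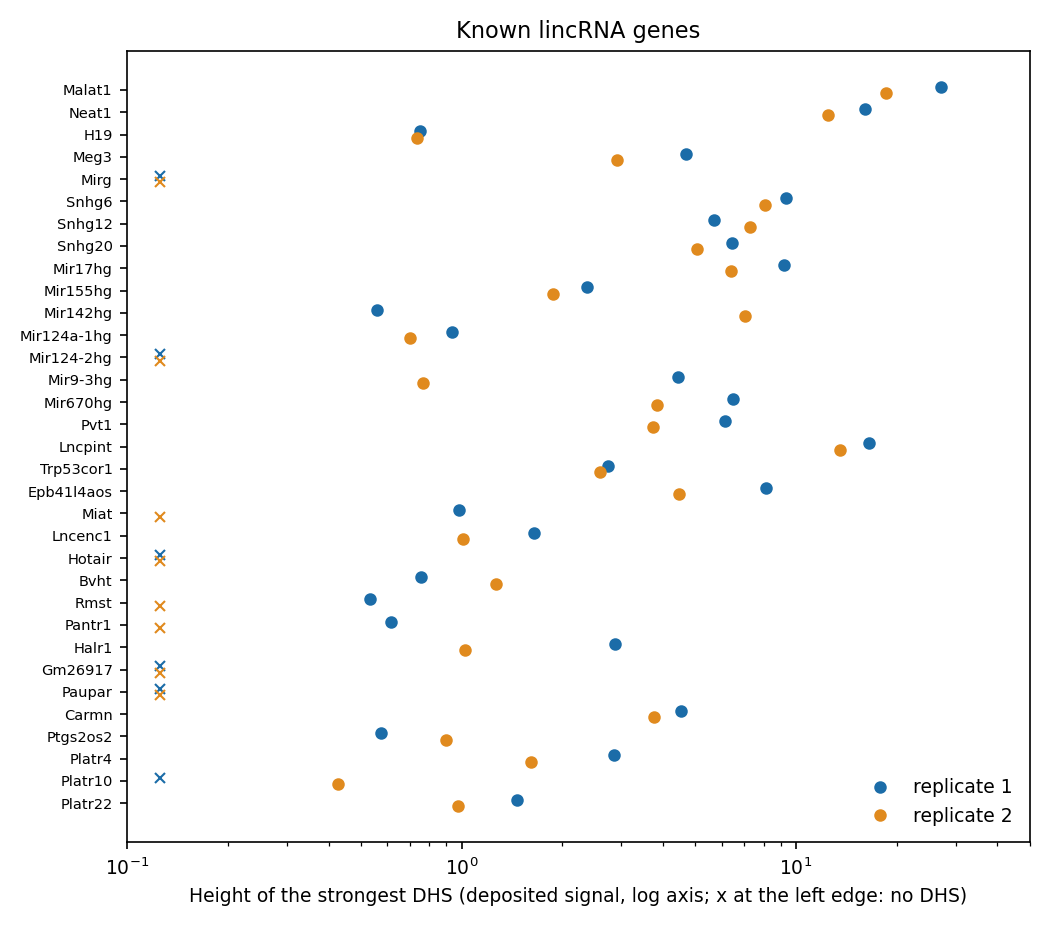
Height of the strongest DHS in the windows of 33 well-known lincRNA genes (deposited signal, logarithmic axis), with 1 point per library and a cross at the left edge where no DHS was present. Malat1, Lncpint and Neat1 are the tallest in both libraries, and Mir142hg (0.558 and 7.04) is the widest apart.

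Among genes of above-median height, those with the lowest log2 ratio of replicate 2 over replicate 1 were Gm38584 (-2.76, heights 3.20 and 0.471), Mir9-3hg (-2.54), Gm35667 (-2.45), Gm831 (-2.32, heights 7.16 and 1.43) and AL592112.1 (-2.30). Those with the highest were Mir142hg (3.66), C230057M02Rik (1.77, from DHSs at different starts), F730311O21Rik (1.67), Gm48089 (1.28) and Gm39348 (1.17). With 1 library per animal no error can be given for these ratios. The strongest genes open in 1 library alone reached similar heights, with Gm44983 at 3.30, 5430431A17Rik at 3.03 and AC116759.1 at 2.64 in replicate 1. In replicate 2 they were 4930401G09Rik at 3.30, Gm5533 at 2.88 and Gm28556 at 2.21. RefSeq places a coding start of Msi1 within 1 kb of the DHS of 4930401G09Rik. Gm28556 has Ptprc, the pan-leukocyte gene CD45, as its nearest protein-coding gene, 16821 bp away, and its windows held 3 DHSs in replicate 2 and none in replicate 1.

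The genes with the most footprints in their windows were 4932412D23Rik, with 13 in replicate 1 and 17 in replicate 2, 2410080I02Rik (17 and 10), AI480526 (14 and 12), Lncpint (17 and 9) and Gm53, 9847 bp from the start of Hoxb9 (18 and 7). 4932412D23Rik had heights of 22.5 and 15.9, and RefSeq places a coding start of Zbtb20 within 1 kb of its DHS. 2410080I02Rik starts 6326 bp from the start of Klf9. In RefSeq the strongest DHS of AI480526 lies inside Rhof, a protein-coding gene on the same strand, with no coding start within 1 kb. All 5 had several DHSs, between 2 and 9 in a library, so their footprint counts also reflect more open DNA.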

How the data were processed

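DNase-seq peaks and footprints of 2 libraries, 1 per animal, were used as deposited in mm10; they were made from each library's own filtered alignments, per the file headers. The deposited peak signal (height) had been scaled by the authors, since it moved in whole steps that differ between the libraries (all heights within 0.05 of a step); read as CPM the steps give totals of 120 and 112.6 M counts, an inference. Deposited footprints all carry an FDR (q-value) threshold of 0.01 and no score of their own. For the aligner, callers, versions and filters: not given in the sources used here. The longer peak list of each library was used, and the lists of FDR along the genome were not used.

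Starts came from GENCODE M21 on GRCm38.p6 (mm10), and protein-coding starts were those of protein-coding transcripts. A window was open when a DHS touched it by 1 bp, and a gene's height was that of its strongest DHS. RefSeq genes and coding starts were read from the same build. Repeats were the soft-masked bases of the reference. Shares carry 95% Wilson intervals; with 1 group no test was made. Named genes were members of lists of known noncoding RNAs, the 10 strongest overlapping pairs, the 5 of above-median height with the largest log2 ratio each way, the 5 with most footprints and the 3 strongest open in 1 library alone. Some values at listed or neighbouring genes are not reported here. Members and lists were chosen with earlier results of these data known. Overlap calls were tested on simulated data: all 200 planted windows of 4000 were found, and 0 others were called. Alternatives were other windows, distances, peak lists, scalings and overlaps. Python 3.11.15, numpy 2.4.6, scipy 1.17.1 and matplotlib 3.10.9 were used.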

Additional observations from a re-analysis of the deposited data

How the results depend on the processing

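The mean share of open lincRNA genes over the libraries, 25.9%, was 25.7 to 26.1% when either replicate was left out. It moved to 16.6% with windows of 250 bp on either side, 20.4% with 500 bp, 34.3% with 2 kb, 16.5% with the shorter peak list, 11.9% with the 50000 strongest DHSs, 24.3% with the most 5′ start alone, 25.2% with starts over 10 kb from protein-coding starts, 30.6% with no distance limit and 25.1% when the DHS centre had to lie inside. Spliced genes alone gave 25.9%. Avoiding every transcript start of protein-coding genes, an alternative added after seeing the data, gave 25.8%.

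The share of open genes open in both libraries, 74.7%, moved to 75.7% with 2 kb windows, 77.8% with the shorter list (from 75.2 to 69.5% of replicate 1 and from 74.1 to 86.1% of replicate 2), 82.9% with the 50000 strongest DHSs, 73.8% beyond 10 kb, 79.5% with no distance limit, 71.3% when the DHSs had to overlap by 1 bp and 70.4% when by 50% of the shorter. The median height, 1.13, was 0.995 to 1.27 with a replicate left out and 2.00 with the shorter list. The median log2 ratio, -0.36, turned to 0.12 after dividing by each library's median height, and was -0.02 after subtracting the median of all overlapping pairs, added after seeing the data. The footprint share, 74.7%, was 68.0 to 81.4% with a replicate left out and 85.5% with the shorter list. In 300 bp windows all 12 motifs kept their direction against all autosomal DHSs as a mean over the libraries and in replicate 2, and 9 did in replicate 1, where the Sp/KLF and AP-1 differences turned positive (-0.07 to 1.08 and -0.23 to 0.62 percentage points) and that of TEAD turned negative (0.21 to -0.04). At 150 bp the libraries had opposite signs for the Sp/KLF, AP-1, NFI and TEAD motifs, so the mean shows no common direction for these. The shared share and the log2 ratio need both libraries, so leaving one out gives no value. The causes of these movements were not tested, beyond larger windows and longer lists holding more DHSs. No paired analysis was possible because there is only 1 group.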

Other observations

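Of the lincRNA genes, 8 had 1 of the 18 marker genes of the tissue check as their nearest protein-coding gene, and 2 of the 8 were open in both libraries, near the 19.3% of all lincRNA genes, and 6 in neither. These genes were chosen after their values were seen. Gm17322 starts 8370 bp from the start of Cyp11a1, the gene of the enzyme that cleaves the cholesterol side chain in steroid synthesis. A DHS covered its start in both libraries, with heights of 1.71 and 1.61 and centres 12 and 20 bp downstream, and its windows held 1 footprint in each library. Gm32585 starts 21294 bp from the start of Scarb1, the receptor that takes up cholesterol from lipoproteins, and had heights of 3.31 and 1.86 from DHSs that did not overlap, centred at -1116 bp from the start in replicate 1 and at 1084 bp in replicate 2. Gm40323, which starts 20081 bp from the start of Scarb1, and the genes nearest to Th and Mc2r were open in neither library.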
